A study of Mus musculus with 1536 samples.

Results

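Serotonin neurons can carry, beside serotonin, the machinery for glutamate or GABA. The cells described here are the sorted serotonin neurons in which no sign of either was read, defined as 0 CPM (reads of a gene scaled to the reads of its cell) of all 4 of Slc17a8, Gad1, Gad2 and Slc32a1. They numbered 139 of 999 cells, 13.9% (95% exact Clopper-Pearson interval 11.8 to 16.2%). They are called marker-negative cells below, and the other cells of the same plates are the comparison. Because the 4 genes chose the cells, the levels of those genes are a definition and not a result.

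All cells came from C57BL/6J mice of both sexes, 40 to 45 days old, in which Cre from a transgene driven by regulatory sequence of the serotonin transporter gene (Sert-Cre) switched on the red reporter tdTomato from the Ai14 allele, and single tdTomato+ cells were sorted into plates and sequenced by Smart-seq2. No animal was treated and no allele differed between the groups. The groups differed by dissection: the 290 cells labelled Principal DR came from the dorsal raphe (DR) without its caudal extension, and the 709 cells labelled All DR came from a block that, by the series' design text, also held the caudal DR and the median raphe (MR). Sorting by Sert-Cre history limits the sample to cells in which that transgene was active at some time, and the labels do not say which animal a cell came from. Each dissection was therefore 1 sample, no p-value was computed, and the intervals given cover counting error only. The number of plates showing the same direction is given in place of a test. Plates of 1 dissection may share animals.

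Slc17a8 encodes Vglut3, the vesicular glutamate transporter that many raphe serotonin neurons carry, and its presence allows glutamate to be released together with serotonin. Gad1 and Gad2 encode the enzymes that make GABA from glutamate (Gad67 and Gad65), and Slc32a1 encodes Vgat, which loads GABA into synaptic vesicles. Serotonin itself is made by Tph2 and Ddc, loaded into vesicles by Vmat2 (Slc18a2) and taken back up by Sert (Slc6a4), under the control of transcription factors such as Fev, Gata2, Gata3 and Lmx1b. On GRCm38 Slc17a8 lies at chr10:89574020-89621253 on the minus strand, Gad1 at chr2:70553072-70602014, Gad2 at chr2:22622205-22693874 and Slc32a1 at chr2:158610767-158615748, the last 3 on the plus strand.

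The share of marker-negative cells was 16.4% in All DR, 116 of 709 cells (13.7 to 19.3%), and 7.93% in Principal DR, 23 of 290 cells (5.09 to 11.7%). Across the 11 plates of All DR it ran from 6.67% on plate SER67, which held 30 cells, to 24.3% on SER60. Across the 5 plates of Principal DR it ran from 4.65 to 14.3%. The plates of the dissections overlapped, although the intervals of the pooled shares did not.

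**Figure D1:**
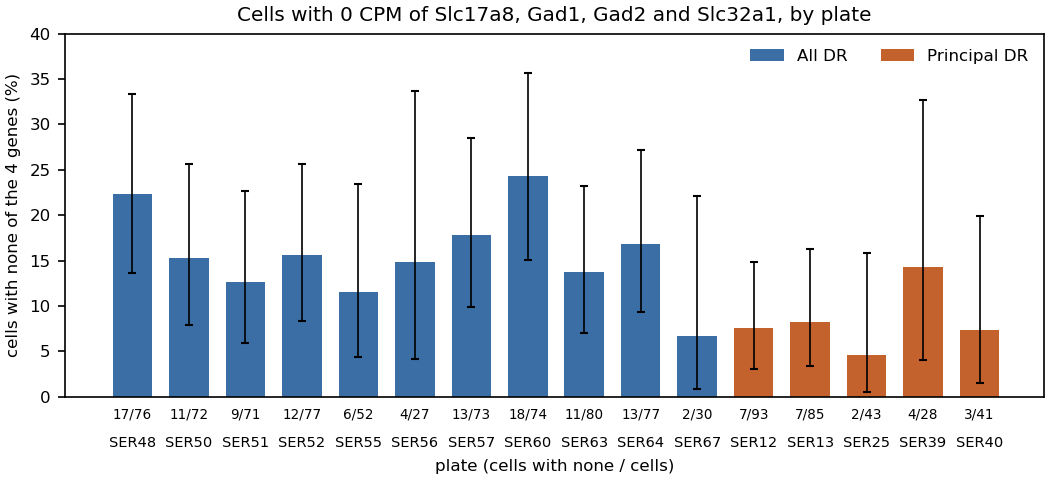
Share of cells with 0 CPM of Slc17a8, Gad1, Gad2 and Slc32a1 on each plate (percent, y axis), with 95% exact binomial intervals as bars and the numbers of cells under each plate. Principal DR plates lie between 4.65 and 14.3% and All DR plates between 6.67 and 24.3%.

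Few cells stood close to the limit. Only 25 cells had 1 to 3 reads of the 4 genes together, at 0.859 to 8.99 CPM, and 64 cells had 1 to 9 reads, whereas 796 cells had 10 or more and 459 cells had 100 or more. Of the 25 cells just outside the limit, 23 were from All DR and 2 from Principal DR. Leaving Slc32a1 out of the definition gave the same shares in both dissections. When each cell was thinned by calculation to 250000 reads on genes, 15.4% of the 990 cells deep enough were expected to show no read of the 4 genes, with 15.1 of the 853 other cells joining the marker-negative ones, and the shares were 18.3% in All DR and 8.32% in Principal DR.

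Marker-negative cells had fewer reads in All DR and no single direction in Principal DR. In All DR marker-negative cells had a median of 792664 reads on genes and the others 891660, and the median was lower in marker-negative cells on 9 of 11 plates. In Principal DR the medians were 727211 and 759937, but on single plates the marker-negative cells were the deeper ones on 4 of 5. The pooled and within-plate directions thus differ in Principal DR.

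Marker-negative cells had fewer genes with a read. In All DR the median was 9303 genes against 9524, lower on 9 of 11 plates, and in Principal DR 9173 against 9838, lower on 5 of 5. At a fixed 250000 reads the medians were 8527 and 8668 in All DR (lower on 10 of 11 plates) and 8288 and 8878 in Principal DR (lower on 5 of 5). The difference in Principal DR was therefore present on plates where the marker-negative cells had more reads. Within the clusters described further on, the direction varied. With both dissections pooled and no fixed depth, DR-6-like medians were 9261 and 9008 genes, at 781336 and 738406 reads. The medians were 9339 and 9340 genes in MR-2-like cells and 9009 and 9458 in MR-4-like cells.

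**Figure D2:**
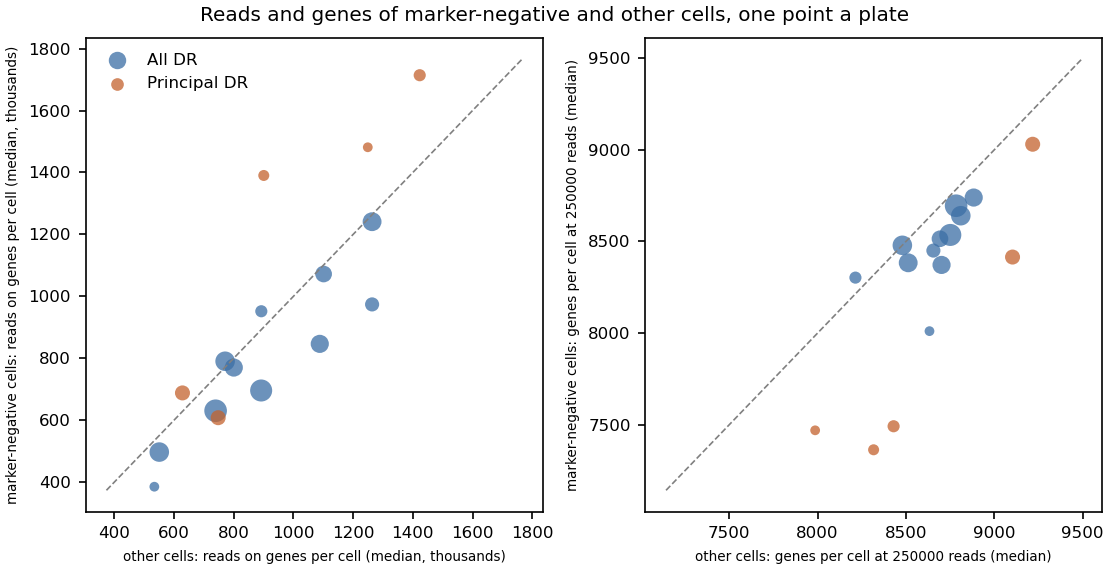
Median reads on genes per cell (left, in units of 1000 reads) and median genes per cell at 250000 reads (right), in marker-negative cells (y axis) against the other cells of the same plate (x axis). Each point is 1 plate, with an area that grows with its number of marker-negative cells; on the right 15 of 16 plates lie under the dashed line of equality.

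The marker-negative cells had the transcripts of serotonin neurons. Tph2, the rate-limiting enzyme of serotonin synthesis, had reads in 116 of 116 marker-negative cells of All DR and 23 of 23 of Principal DR. The paper describes the 999 cells as Tph2+, so this count is no independent sign of their identity. Its mean per plate in All DR ran from 6466 through a median of 9382 to 10694 CPM in marker-negative cells and from 9079 through 10437 to 11344 CPM in the others, so the plates overlapped. Of 17 serotonin identity genes with enough reads to be compared, 0 reached a 2-fold difference in either dissection, and the median log2 ratio of the list was 0.04 in All DR and -0.08 in Principal DR, where that of all genes compared was 0.00 in both.

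Within that list Maob and Slc6a4 moved by less than 2-fold but in 1 direction on every plate with 3 or more cells of each kind. Maob, which degrades monoamines, had means of 660 and 972 CPM in All DR (log2 ratio -0.56, lower on 10 of 10 plates) and 1061 and 1627 CPM in Principal DR (log2 ratio -0.62, 4 of 4 plates). Slc6a4, the serotonin transporter, had 3277 and 3716 CPM in All DR (log2 ratio -0.18, 10 of 10 plates) and 3209 and 4154 CPM in Principal DR (log2 ratio -0.37, 4 of 4 plates). Fev, the transcription factor that defines serotonin neurons, had 230 and 215 CPM in All DR. Fev had no single direction, with a log2 ratio of 0.10 there and -0.20 in Principal DR.

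To see which kinds of serotonin neuron the marker-negative cells were, all 999 cells were clustered on 2000 variable genes with the 4 defining genes held out. The 11 clusters were given names of raphe subtypes only where the markers of a subtype stood out and no other cluster matched that subtype best. Otherwise they took the name of their leading gene. The clusters led by Prph and by Sox14 matched the same subtype best and so were not given its name. The marker-negative cells were unevenly spread over them. The DR-6-like cluster, led by Npas1, Dlk1, Sema5a and Nell1, held 65 of the 139, 46.8% (38.3 to 55.4%), while it held 9.65% of the other cells (7.76 to 11.8%). The MR-2-like cluster held 27 and the MR-4-like cluster 21, and 26 lay in the remaining clusters. The DR-6-like share rests on the clustering: it was 31.7% with all detected genes and 22.3% with 30 components. With 10 components or at resolution 1.2 no cluster was named DR-6-like, which can also mean that several clusters matched DR-6 best. Unnamed clusters led by Npas1 held 43 of the 139 with 10 components, and 43 and 19 at resolution 1.2.

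Read the other way, 65 of the 148 DR-6-like cells were marker-negative, 43.9% (35.8 to 52.3%). The other 83 were made up of 47 cells with Slc17a8 only, 22 with Gad1, Gad2 or Slc32a1 only and 14 with both. In MR-2-like cells the share was 27 of 123, 22.0%, and in MR-4-like cells 21 of 111, 18.9%. In the DR-5-like cluster, led by Npy2r and Sst, 1 of 174 cells was marker-negative, 0.575% (0.0145 to 3.16%). In the DR-4-like and cDR-like clusters 0 of 25 and 0 of 23 were. The limit of 3 cells used for counts of 0 allows shares of up to 12.0 and 13.0%, and the exact upper limits are 13.7 and 14.8%.

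In Principal DR most marker-negative cells lay in 1 cluster. Of the 23 cells, 19 were DR-6-like, 82.6% (61.2 to 95.0%), against 31 of 267 other cells, 11.6% (8.03 to 16.1%), and the share was higher in marker-negative cells on 5 of 5 plates. This did not hold when all detected genes were used for clustering: the DR-6-like cluster then held 0 of the 23, and 18 of them lay in a pair of unnamed clusters, with 11 and 7 of them, in which every cell was from Principal DR. With 10 components 17 of the 23 lay in an unnamed cluster of 64 cells. In All DR 46 of 116 were DR-6-like, 39.7% (30.7 to 49.2%), against 52 of 593, 8.77% (6.62 to 11.3%), higher on 9 of 11 plates. The MR-2-like and MR-4-like cells came from All DR, with 1 of 123 and 0 of 111 from Principal DR.

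**Figure D3:**
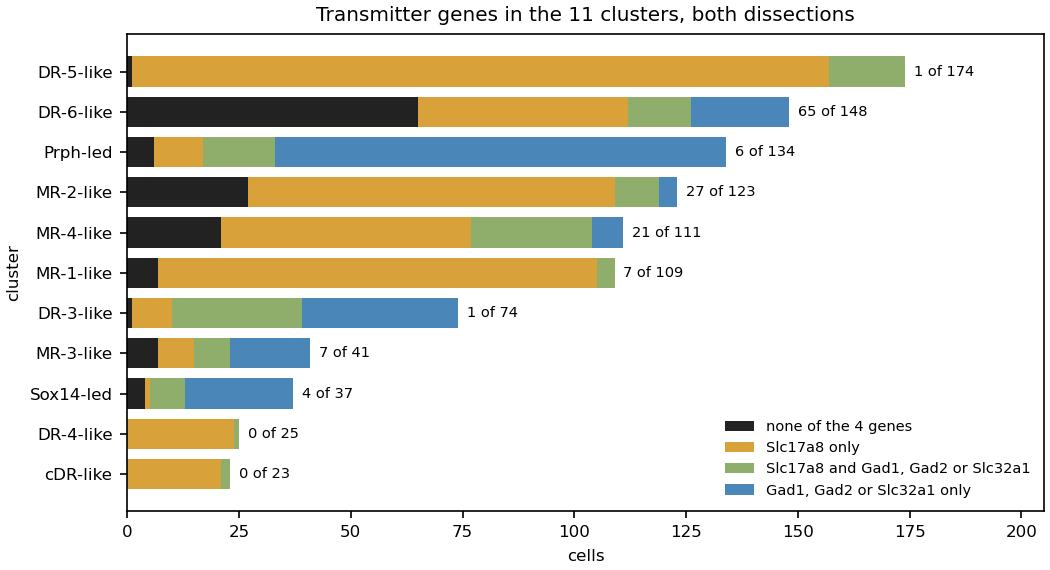
Cells of the 11 clusters (x axis, both dissections together), divided by which of the 4 transmitter genes had a read, with the number of marker-negative cells and of all cells beside each bar. The DR-6-like bar has 65 marker-negative cells of 148, the MR-2-like bar 27 of 123 and the MR-4-like bar 21 of 111.

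The clusters' own genes describe the marker-negative cells in them, without being a test since they defined the clusters. Nell1, a secreted glycoprotein, averaged 155 CPM in the 65 DR-6-like marker-negative cells and was read in 87.7% of them, was at 0 in all 27 MR-2-like ones and averaged 2.72 CPM in the 21 MR-4-like ones. Pth2r, a receptor of the parathyroid hormone family, averaged 31.5 CPM in the DR-6-like cells and 50.3 CPM in the MR-2-like cells, and was at 0 in the MR-4-like cells. Gabre, the epsilon subunit of the GABA-A receptor, had reads in 98.5% of the DR-6-like, all of the MR-2-like and 19.0% of the MR-4-like cells.

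MR-4-like marker-negative cells were set apart by transcription factors and a mechanosensitive channel. Zeb2, a zinc-finger repressor, averaged 56.2 CPM in them and was at 0 in the other 118. Piezo2, a channel opened by membrane stretch, averaged 87.7 CPM in MR-4-like cells and 0.978 CPM in DR-6-like cells. Irx2, a homeobox gene, averaged 28.2 CPM in MR-2-like cells, 2.65 CPM in DR-6-like cells and 0 in MR-4-like cells. Tph2 was high in all 3 kinds, at 7970, 9063 and 11882 CPM.

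Across genes, the mean of the marker-negative cells was set against the mean of the others, weighted so that each plate counted as often as it held marker-negative cells. A gene was called where the ratio on the CPM + 1 scale passed 2-fold, the sign was the same on at least 75% of plates with 3 or more cells of each kind, and at least 20% of the cells on the higher side had a read. Adding 1 CPM understates the ratios of weakly expressed genes. In All DR 20 of 11480 genes were called higher (0.174%) and 74 lower (0.645%) in marker-negative cells. In Principal DR, with only 23 marker-negative cells, 150 of 11519 were called higher (1.3%) and 465 lower (4.04%).

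Single cells weighed on these means. Of the 20 higher calls in All DR, 7 were lost when each gene's highest cell was left out of each set, and for 6 of the 7 (Timp3, Tmtc3, Col16a1, Spata33, Nhs and Hacd1) that highest cell was the same one, on plate SER48, which with 120692 reads and 1760 genes was the lowest of the 116 by both measures. Tmtc3 for example had a mean of 18.1 CPM with that cell and 7.95 CPM without it. Timp3, Col16a1, Nhs and Tmtc3 also missed the call without plate SER48. Those 6 genes are not described further. The 74 lower calls were all kept, and 91 genes were then called lower. In Principal DR the calls moved to 80 higher and 882 lower without each gene's highest cell. This step takes 1 of 116 marker-negative cells but 1 of 593 others in All DR, and 1 of 23 and 1 of 267 in Principal DR. It lowers the mean of the smaller set more and tends to move ratios down. The kept and added lower calls are therefore no test of those genes.

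Among the genes higher in marker-negative cells of All DR were receptors and signalling genes. Pth2r (chr1:65282056-65389244, plus strand) had plate means from 0 through a median of 27.6 to 60.0 CPM in marker-negative cells and from 4.45 through 8.45 to 15.4 CPM in the others. The ranges overlapped, and the marker-negative mean was higher on 9 of 10 plates, with a log2 ratio of 1.52. Reads were present in 68 of 116 and 129 of 593 cells.

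Adcy8, a calcium-stimulated adenylyl cyclase, averaged 9.40 and 2.46 CPM (log2 ratio 1.59, higher on 8 of 10 plates). Grin3a, a subunit of NMDA-type glutamate receptors, averaged 9.42 and 3.02 CPM (log2 ratio 1.38, 8 of 10 plates). Muc6, which encodes a mucin, averaged 27.3 and 11.2 CPM and was higher on 10 of 10 plates, with a log2 ratio of 1.22. Its plate means of 12.7 to 51.1 CPM in marker-negative cells still overlapped those of 8.66 to 17.1 CPM in the others.

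Among the other higher genes, Col28a1, a collagen, had reads in 71 of 116 marker-negative and 184 of 593 other cells and averaged 22.3 and 8.65 CPM. Sostdc1, a secreted antagonist of BMP and Wnt signals, averaged 70.5 and 27.4 CPM (log2 ratio 1.33). Nell1 averaged 61.1 and 25.9 CPM (log2 ratio 1.21). Vav2 averaged 8.83 and 2.49 CPM, and Npas3, a bHLH-PAS transcription factor, 9.66 and 3.73 CPM.

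The genes lower in marker-negative cells of All DR differed more. Htr5b, which encodes a serotonin receptor (chr1:121509842-121528465, minus strand), had plate means from 0 through 0.455 to 9.02 CPM in marker-negative cells and from 20.5 through 39.1 to 52.8 CPM in the others. The ranges did not overlap, and the log2 ratio was -3.53, with reads in 8 of 116 and 268 of 593 cells. Npy2r, a receptor of neuropeptide Y, averaged 1.44 and 14.8 CPM (log2 ratio -2.70, lower on 9 of 10 plates). Crhr2, a receptor of the corticotropin-releasing hormone family, averaged 5.40 and 29.6 CPM (log2 ratio -2.26, 10 of 10).

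Kcnab1, a beta subunit of voltage-gated potassium channels, averaged 6.70 and 36.5 CPM (log2 ratio -2.29, lower on 10 of 10 plates). Synpr, a synaptic vesicle protein, averaged 2.94 and 19.7 CPM and Ret, the receptor tyrosine kinase of GDNF-family ligands, 1.90 and 13.0 CPM, each lower on 10 of 10 plates. Of the summed CPM of Ret in marker-negative cells, 52.0% came from 1 cell. Mctp1, a calcium-binding membrane protein, averaged 5.41 and 25.6 CPM, Gsta4, a glutathione transferase, 21.4 and 87.4 CPM, Tmeff2, a membrane protein, 8.96 and 37.1 CPM, and Pcp4l1 13.4 and 50.7 CPM.

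In Principal DR the highest ratios included those of leading genes of the DR-6-like cluster. Npas1, a bHLH-PAS transcription factor (chr7:16455721-16477728, minus strand), had means on plates SER12, SER13, SER25, SER39 and SER40 of 15.8, 100.6, 58.9, 35.0 and 86.4 CPM in marker-negative cells and 5.57, 5.68, 8.79, 0.0264 and 10.8 CPM in the others. The plates did not overlap, and the log2 ratio was 3.16. Only 9 of the 23 cells and 20 of the 267 others had a read, so the mean rests on a minority of cells. In All DR Npas1 averaged 12.6 and 7.37 CPM, with 12 of 116 cells read, and was not called (log2 ratio 0.70, higher on 4 of 10 plates).

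Gabre had means on the same 5 plates of 16.3, 38.3, 120.6, 90.6 and 50.4 CPM in marker-negative cells and 4.33, 7.26, 15.9, 2.59 and 5.19 CPM in the others. The plates did not overlap, 22 of 23 marker-negative cells had a read, and the log2 ratio was 2.84. Sema5a, an axon guidance protein, averaged 152 and 21.6 CPM (log2 ratio 2.76) with reads in 21 of 23 and 117 of 267 cells. Pth2r averaged 21.2 and 2.06 CPM (log2 ratio 2.86), with reads in 10 of 23 and 16 of 267 cells, Fam114a1 62.2 and 8.58 CPM, and Col28a1 16.3 and 1.73 CPM.

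The largest fall in Principal DR was that of Trh, the precursor of thyrotropin-releasing hormone (chr6:92242061-92244650, minus strand). Its plate means were 8.93, 0, 0, 0 and 0 CPM in marker-negative cells and 175, 169, 65.3, 37.9 and 77.4 CPM in the others. All marker-negative reads came from 1 of 23 cells, whereas 97 of 267 others had a read, and the log2 ratio was -5.11. In All DR Trh averaged 20.7 and 10.4 CPM, was read in 4 of 116 and 36 of 593 cells and was not called, and 68.3% of its summed CPM in marker-negative cells came from 1 cell, without which the mean was 6.63 CPM. Htr5b averaged 1.31 and 29.9 CPM (log2 ratio -3.74), Ret 2.87 and 45.3 CPM, and Mctp1 2.41 and 39.0 CPM. Spag5, a spindle-associated protein, and Bcl11a, a zinc-finger transcription factor, had reads in 0 of 23 marker-negative cells, which allows a share of up to 13.0%, and in 118 and 108 of 267 others.

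Called in both dissections were 8 higher genes, 40% of the All DR and 5.33% of the Principal DR calls, and 47 lower genes, 63.5% and 10.1%. The dissections share no cells or plates. Some called genes had unlike levels in glutamate and GABA cells. Trh in Principal DR was at 0 in the 84 cells with Slc17a8 only and at 211 CPM in cells with Gad1, Gad2 or Slc32a1 only, beside 2.72 CPM in marker-negative cells. Crhr2 in All DR averaged 36.8 CPM in cells with Slc17a8 only and 4.00 CPM in cells with GABA genes only, beside 5.40 CPM in marker-negative cells.

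**Figure D4:**
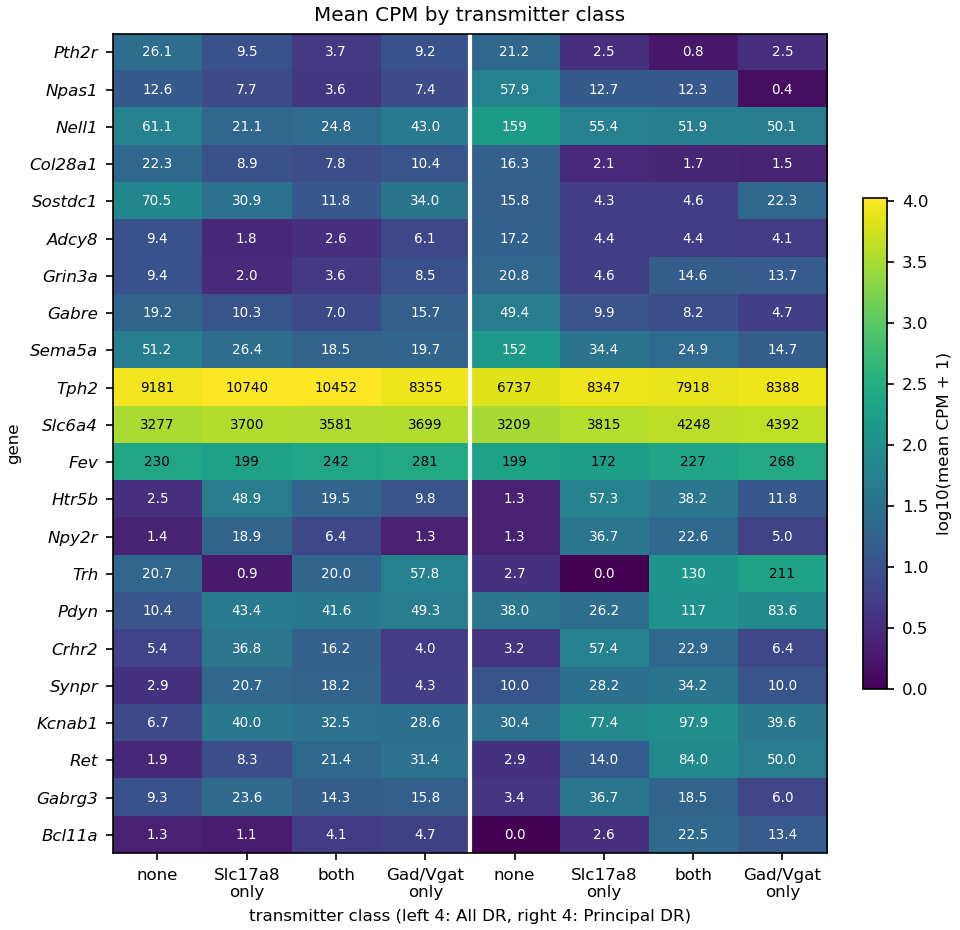
Mean CPM of 22 genes (printed in each field, colour on a log10 scale of CPM + 1) in cells with none of the 4 genes, Slc17a8 only, both kinds, or Gad1, Gad2 or Slc32a1 only, for All DR (left) and Principal DR (right). Htr5b and Npy2r are highest in the Slc17a8 only columns, and Pth2r in the columns of cells with none (26.1 and 21.2 CPM).

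Genes of other transmitter systems were read in few marker-negative cells. Slc17a6 and Slc17a7, the other vesicular glutamate transporters, and Chat, the enzyme of acetylcholine synthesis, had reads in 0 of 116 and 0 of 23 marker-negative cells, which allows shares of up to 2.59 and 13.0%. Th, the first enzyme of catecholamine synthesis, was read in 6 of 116 cells at a mean of 0.588 CPM. Hdc, which makes histamine, was read in 7 of 116 and Slc18a1, the other vesicular monoamine transporter, in 10 of 116. At least 1 of 11 such genes was read in 17.2% of marker-negative cells and 25.1% of the others in All DR, and in 26.1 and 40.1% in Principal DR.

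Some neuropeptide genes were read in fewer marker-negative cells. Of Trh, Crh, Sst and Pdyn, at least 1 was read in 29 of 116 marker-negative cells, 25% (17.4 to 33.9%), and in 223 of 593 others, 37.6% (33.7 to 41.6%), in All DR, where the share was lower on 8 of 11 plates. In Principal DR it was 3 of 23, 13.0% (2.78 to 33.6%), against 187 of 267, 70.0% (64.2 to 75.5%), lower on 5 of 5 plates. Among the other cells of Principal DR it was 50% in those with Slc17a8 only and 82.4% in those with GABA genes only. In 87 of 116 and 20 of 23 marker-negative cells none of these 4 peptide genes was read either. Over a list of 27 peptide genes, the median number read was 2 in marker-negative and 2 in other cells of All DR. In Principal DR it was 1 and 3.

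Of 9 peptide genes compared in each dissection, 2 fell and 0 rose. Of all genes compared, 0.645% were called lower in All DR and 4.04% in Principal DR. In All DR these were Pdyn, the dynorphin precursor, at 10.4 and 42.1 CPM (log2 ratio -1.92, lower on 10 of 10 plates), and Gal, galanin, at 5.96 and 17.6 CPM (log2 ratio -1.42). In Principal DR they were Trh and Gal, the latter at 5.01 and 18.2 CPM. Crh was read in 0 of 23 marker-negative cells of Principal DR, and Sst in 1. The median log2 ratio of the 9 genes was -0.60 in All DR and -1.67 in Principal DR, but with the others weighted by cluster, as described further on, it turned to 0.11 and 0.31 and 0 of the 9 were called in either dissection. Trh in Principal DR stayed lower by more than 2-fold within clusters, though it was not called. Of the summed CPM of Pdyn in marker-negative cells, 44.1% came from 1 cell in All DR and 87.4% from 1 cell in Principal DR.

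Few genes for the handling and release of transmitter were called. Of all genes compared, 0.174% were called higher and 0.645% lower in All DR, and 1.3 and 4.04% in Principal DR. At the All DR shares lists this short would hold few or no calls. Counts of 0, here and in the lists below, do not set a list apart from other genes. Of 14 and 13 genes of glutamate and GABA metabolism and uptake compared, 0 were called in All DR, and 1, the GABA transporter Slc6a11, was called lower in Principal DR. Of 22 genes of vesicle release 0 were called in either dissection, with median log2 ratios of 0.00 and -0.05. Of 12 genes of peptide processing, 1 (Pam, which amidates peptides) was called lower in Principal DR and 0 in All DR.

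Receptors for the transmitters were called in both directions. Of 31 glutamate and GABA receptor genes in All DR, Grin3a rose and Gabrg3 fell, and of 29 in Principal DR 4 rose (Gria1, Grm7, Gabre and Gabrq) and 3 fell (Grik4, Grm5 and Gabrg3). The call of Gria1 was lost without its highest cell. Gabrq, the theta subunit of the GABA-A receptor, averaged 136 and 33.7 CPM in Principal DR (log2 ratio 1.98) and 77.8 and 45.6 CPM in All DR, where it was below 2-fold but higher on 9 of 10 plates. Gabrg3, the gamma 3 subunit, averaged 9.34 and 20.9 CPM in All DR (log2 ratio -1.09, lower on 10 of 10 plates) and 3.41 and 18.6 CPM in Principal DR.

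Of 16 receptors for amines and acetylcholine in All DR, only Htr5b was called. Of 17 in Principal DR, Chrna4, a nicotinic receptor subunit, rose and 4 fell (Htr5b, Adra1a, Hrh3 and Chrm1). Of the neuropeptide receptors, 16 in All DR and 12 in Principal DR, Pth2r rose and Npy2r and Crhr2 fell in both, and in Principal DR Hcrtr2 also fell. Sstr2 and Calcr were called higher in Principal DR, and both calls were lost without the highest cell of each gene.

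Subtype transcription factors were called in both directions. Of 17 compared in Principal DR, 2 rose (Npas1 and Npas3) and 9 fell, among them Pax5, Sox14, Bcl11a, Bcl11b, Nfix, Zfp536, Sox1 and Rorb, with a list median of -1.09. Of 18 in All DR, Npas3 rose and Sox1 fell, and the median was 0.00. Within clusters 0 were called in either dissection, and the medians were 0.02 in Principal DR and -0.05 in All DR. Sox1 averaged 1.18 and 6.83 CPM in All DR (log2 ratio -1.84, lower on 10 of 10 plates), and its log2 ratio in Principal DR was -1.63. Prph, an intermediate filament protein, was the 1 of 9 cytoskeletal genes called lower in Principal DR, at 35.4 and 135 CPM; it was at 25.8 and 18.6 CPM in All DR, and the difference between the dissections was not tested.

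Ion channel and immediate-early genes were also counted. Of 30 channel genes in Principal DR, those called lower included Cacna1e and Cacna1i, and of 11 immediate-early genes Nr4a1 and Btg2 were called lower, beside 0 of 31 and 0 of 12 called in All DR, where fewer genes were called in all and the difference between the dissections was not tested. Cacna1e, a calcium channel, averaged 51.2 and 146 CPM in Principal DR, in which 22 of 23 marker-negative cells had a read. Of 11 mitochondrial transcripts and 8 stress genes 0 were called in either dissection.

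Since marker-negative cells were gathered in a few clusters, the comparison was repeated with the other cells weighted by cluster in place of plate, so that DR-6-like cells were set against DR-6-like cells and so on. Most differences shrank. In All DR the median log2 ratio of the 20 higher genes went from 1.25 to 0.71 and that of the 74 lower genes from -1.30 to -0.50. Nell1 went from 1.21 to 0.01, Pth2r from 1.52 to 0.70, and Pdyn from -1.92 to 0.18. The clusters were made from these same cells, so ratios of their leading genes, Nell1 and Pth2r among them, shrink partly by construction. Htr5b stayed the lowest of the genes named, at -1.51, but was not called.

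In All DR 6 genes were called higher within clusters (0.0523%) and 7 lower (0.061%). The 6 were the ones held up by the single shallow cell on plate SER48, and 0 genes were called higher without each gene's highest cell. The 7 lower genes were AI467606, Tpbg, Calb1, Cbln4, Caprin2, Gm2464 and Kcnab1. Tpbg, Cbln4 and Kcnab1, like Htr5b, were among the leading genes of the DR-5-like cluster, in which 1 of 174 cells was marker-negative. Plate counts given here compare all cells of a plate and do not show that a cluster-matched difference recurred on each plate. Kcnab1 averaged 6.70 CPM in marker-negative cells and 20.3 CPM in cluster-matched others (log2 ratio -1.47, 10 of 10 plates). Cbln4, a synaptic organiser of the cerebellin family, averaged 23.6 and 60.3 CPM (log2 ratio -1.32, 10 of 10), and Calb1, the calcium buffer calbindin, 47.7 and 109 CPM (log2 ratio -1.18, 9 of 10). Without each gene's highest cell 10 genes were called lower, of which 4 were among the 7.

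Maob and Slc6a4 came closer to the others within clusters. The log2 ratio of Maob went from -0.56 to -0.31 in All DR and from -0.62 to -0.28 in Principal DR, and that of Slc6a4 from -0.18 to -0.02 and from -0.37 to -0.10. In Principal DR, where 22 marker-negative cells had others in their cluster, 130 genes were called higher (1.13%) and 299 lower (2.6%), and the changes of Npas1, from 3.16 to 0.40, of Gabre, from 2.84 to 0.60, and of Trh, from -5.11 to -2.63, went the same way. These counts moved to 57 and 622 without each gene's highest cell, a step that lowers the mean of the smaller set more.

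Inside the DR-6-like cluster of All DR, the 46 marker-negative and the 52 other cells differed in some genes and were close in others. Npas1, which leads the cluster, averaged 31.6 and 76.0 CPM, with reads in 23.9 and 67.3% of the cells, and Pth2r 35.4 and 16.3 CPM, with reads in 84.8 and 42.3%. Nell1 averaged 142 and 141 CPM, with reads in 89.1 and 86.5%, and Gabre 23.0 and 23.5 CPM. In the 19 and 31 cells of Principal DR Npas1 averaged 70.1 and 52.6 CPM. In All DR Kcnab1 averaged 8.07 and 34.0 CPM, with reads in 23.9 and 69.2%, and Htr5b was read in 0 of 46 marker-negative cells and in 17.3% of the others. By the same call rule, with the others weighted by plate, 80 of 11292 genes were higher and 100 lower in these cells of All DR. Pth2r and Npas1 were among them, and Kcnab1 and Htr5b were not.

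**Figure D5:**
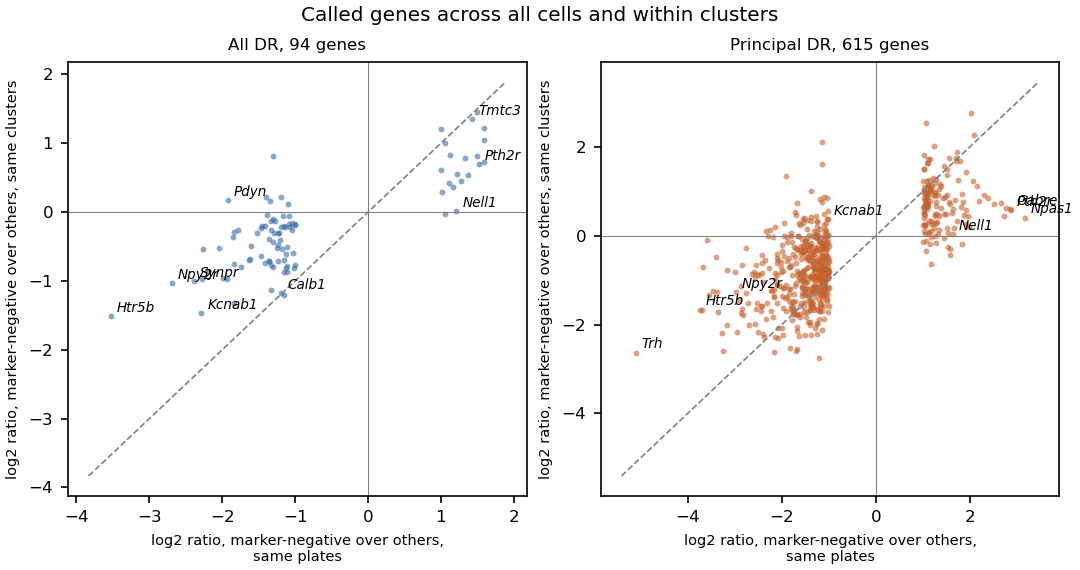
Log2 ratio of marker-negative over other cells for each called gene, with the others weighted by plate (x axis) or by cluster (y axis), in All DR (left, 94 genes) and Principal DR (right, 615 genes). Most points lie between the dashed line of equality and the horizontal line of 0, as for Nell1 in All DR, at 1.21 and 0.01.

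Oligodendrocyte transcripts were present in marker-negative and other cells alike. The sum of the astrocyte markers, mostly Slc1a2, had a lower median in marker-negative cells of All DR. The summed level of 7 oligodendrocyte markers had a median of 112 and 109 CPM in All DR, with ranges of 8.04 to 1783 and 0 to 79302 CPM, and of 96.1 and 103 CPM in Principal DR. The 6 astrocyte markers had medians of 2.70 and 9.94 CPM in All DR and 2.56 and 2.50 CPM in Principal DR. In All DR their summed means were 17.2 and 24.8 CPM. Of these, Slc1a2, also in the list of glutamate and GABA handling, made up 12.0 and 19.6 CPM, with medians of 0 and 8.26 CPM. Microglial and endothelial lists had medians of 0 CPM in every set, and 0 genes of the glial and endothelial lists were called. Among marker-negative cells of Principal DR Mog, Cldn11, Gfap, Aldh1l1 and Gja1 were at 0. The part of glial RNA in the differences described was tested only by leaving out cells with over 1000 CPM of the oligodendrocyte markers, which gave 15 higher and 77 lower genes in All DR and 160 and 479 in Principal DR.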

How the data were processed

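The deposited table holds CPM per gene and cell for 999 of 1536 labelled cells (53263 genes). Per the submitters' processing notes, the authors used bcl2fastq 2.19.0.316, STAR 2.6.1a and HTSeq 0.11.2 with mm10 (GRCm38); the annotation version is not given in the sources used here. All values above 0 were whole multiples of 1 read (100% within 0.001), so reads were recovered from the deposited CPM. Reads carry no molecular identifiers, and overlapping genes cannot be told apart where counting ignored strand. Depth ran from 96834 to 2780440 reads on genes per cell. No count test was run, because the labels name no animals and each dissection is 1 sample; intervals and limits of 0 (3 cells) cover counting error.

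Genes with a mean of at least 2 CPM over a dissection's cells were compared, with a pseudocount of 1 CPM. Thinned values are exact expectations. Clusters were made with Seurat 5.3.0 in R 4.3.3 on ln(CPM+1), with 2000 variable genes, 20 components, resolution 1 and the 4 genes held out. The cells were not screened for doublets. Coordinates are those of GENCODE M21.

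The cells, gene lists, markers and the choice of variable genes were made with earlier results of these data known. Genes named are the 12 called genes of All DR and the 6 of Principal DR with the largest ratios in each direction, up to 4 of each of 19 gene lists, and cluster markers. Genes named within clusters, in full lists of called list members, or for resting on 1 cell were named after their values were seen, as were Maob, Cbln4 and Calb1. A few genes that meet these rules are not reported here. The steps were tested on simulated data. Alternatives covered the limit of reads, depth, pseudocount, filters, fold, weighting, comparison cells, single plates and clustering. Analyses used Python 3.11.15, NumPy 2.4.6, pandas 2.3.3, SciPy 1.17.1 and matplotlib 3.10.9.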

Additional observations from a re-analysis of the deposited data

How the results depend on the processing

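No paired analysis was possible because the labels name no animals and no plate was in both dissections. With 1 sample per dissection and 23 marker-negative cells in Principal DR, counts of called genes there depend strongly on single cells. The share in All DR was 19.6% when up to 3 reads counted as none. The difference in genes per cell in Principal DR was -1094 at 500000 reads in place of -591 at 250000. Leaving out each plate in turn, the shares ran from 15.4 to 16.8% in All DR and from 7.25 to 8.50% in Principal DR, the difference in median reads from -122918 to -67287 and from -23264 to 442306, and that in genes at 250000 reads from -175 to -98.9 and from -742 to -470. The Principal DR difference in reads changed sign without SER12 (442306) and without SER13 (359909).

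Counts of called genes are given as higher and lower in All DR, then in Principal DR. With a pseudocount of 10 CPM they were 1 and 19, then 35 and 76. With a minimum mean of 10 CPM they were 8 and 42, then 52 and 169. At 1.5-fold they were 81 and 209, then 554 and 1082. Without each gene's highest cell they were 13 and 91, then 80 and 882, and within clusters 0 and 10, then 57 and 622. Leaving out that cell lowers the mean of the smaller, marker-negative set more. The mean log2 scale gave 30 and 55 in All DR, of which 9 and 33 were called on the ratio scale. Against cells with Slc17a8 only they were 41 and 83, then 210 and 422, and against cells with GABA genes only 69 and 85, then 256 and 543. Without single plates the counts ran from 18 to 25 and 66 to 85, then 112 to 164 and 433 to 671. Crhr2 in All DR turned to a log2 ratio of 0.70 against cells with GABA genes only, and Trh in Principal DR to 1.89 against cells with Slc17a8 only, a value set by the pseudocount since Trh was at 0 in them.

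The share of marker-negative cells in the DR-6-like cluster was 31.7% with all detected genes, with 0 of the 23 Principal DR cells in it, and 22.3% with 30 components, where a cluster of 53 cells led by Rgs5 held 36 more. With 10 components or resolution 1.2 no cluster was named DR-6-like, a name also withheld where several clusters matched DR-6 best. Unnamed clusters led by Npas1 then held 43 marker-negative cells of 81, or 43 of 93 and 19 of 51. The alternatives without the highest cell, without the shallowest marker-negative cell (14 and 71 genes in All DR) and without cells rich in oligodendrocyte transcripts were chosen after seeing the data. The cause of each change was not tested.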

Other observations

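Within the marker-negative cells of All DR, a pair of low-abundance peptide genes outside the comparison rested on very few cells. Tac1, the substance P precursor, averaged 4.83 CPM from 2 of 116 cells, and Pnoc, the nociceptin precursor, 9.70 CPM from 2 of 116 cells.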
